A study of Mus musculus with 4 samples.

Results

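Brdt, Brd3 and Brd2 belong to the BET (bromodomain and extra-terminal) family of chromatin readers. They were found as the rows of the deposited count table with these symbols, 3 of its 50763 genes, and all 3 passed the filter on low counts. Polyadenylated RNA of purified pachytene spermatocytes, the mouse germ cells in the long stage of meiotic prophase with fully paired chromosomes, was sequenced in 4 libraries. There were 2 libraries from testes of mice labelled Hsf5 knockdown and 2 from wild-type (WT) mice, and the series set out to compare gene expression of the cells between them. Hsf5 codes for a heat shock factor found in testis. The labels name no other allele or agent and call replicates biological. The sources used here do not give how the knockdown was made, the strain, the age of the mice or how many animals gave each library. Any p-value therefore covers only the spread seen among these 4 libraries.

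BET proteins carry 2 bromodomains, which bind acetylated lysines of histone tails, and an extra-terminal (ET) domain, which binds other chromatin proteins. Through P-TEFb, the kinase that releases paused RNA polymerase II, they are tied to the start of productive transcription. Brd2 and Brd3 are expressed in most tissues. Brdt is the testis member: in mouse, its product is needed for meiotic and later germ cell transcription, and in spermatids it compacts hyperacetylated chromatin before protamines replace the histones.

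The paralogs are alike enough for the question whether reads could be assigned to the wrong one. The stretch of Brdt codons with the most bases matching Brd3 and Brd2 together is therefore shown. The stretch most alike between Brd3 and Brd2 alone was not sought. The stretch shown was found without gaps, from the GENCODE M21 transcripts (GRCm38). It starts at base 994 of the Brdt, base 1111 of the Brd3 and base 1225 of the Brd2 coding sequence, and codes for part of the second bromodomain. Capitals mark positions where the 3 genes are not all the same.
Brdt: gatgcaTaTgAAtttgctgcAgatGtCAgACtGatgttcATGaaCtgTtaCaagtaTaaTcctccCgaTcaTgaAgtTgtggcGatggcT
Brd3: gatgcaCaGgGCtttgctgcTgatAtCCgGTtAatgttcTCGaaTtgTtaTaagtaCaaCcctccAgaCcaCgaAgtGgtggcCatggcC
Brd2: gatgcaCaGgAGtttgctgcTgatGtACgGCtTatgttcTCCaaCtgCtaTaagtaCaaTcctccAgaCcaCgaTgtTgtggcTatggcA

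Of these 90 bases, 64 are identical in all 3 genes and 26 are not. Brd3 and Brd2 share 84.4% of the stretch, Brdt and Brd2 77.8%, and Brdt and Brd3 75.6%. Even in whole coding sequences the longest identical run was 20 bases, between Brd3 and Brd2. None of the 5181 stretches of 50 bases in annotated Brdt transcripts, and none of the 7527 in those of Brd3, occurred in a transcript of any other gene. Of the 8362 in Brd2 transcripts 7.81% did, all in genes that overlap it on the other strand, and none in Brdt or Brd3.

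The depth was 33287428 to 42479164 counts per library. Levels are CPM, counts scaled by library size and edgeR's TMM factors. Hsf5 itself had 287 and 238 CPM in the knockdown libraries and 586 and 449 CPM in the WT libraries (log2 fold change -0.98, SE 0.31; edgeR quasi-likelihood test, adjusted p = 0.0217), so the targeted transcript was lower but still present. Of the 23594 genes tested, 60.9% passed an adjusted p of 0.05, 33.5% lower and 27.4% higher in the knockdown. Markers of other testis cells moved with the groups. The 10 Sertoli cell markers summed to 3101 and 3825 CPM in the knockdown, against 139 and 369 CPM in WT, and all 10 rose. The 11 spermatogonial markers summed to 696 and 650 CPM against 52.3 and 69.8 CPM, and 8 rose. The 9 leptotene and zygotene markers summed to 636 and 433 CPM against 261 and 183 CPM, and 7 rose and 1 fell. The 10 spermatid markers summed to 20.2 and 11.5 CPM against 3801 and 1881 CPM, and all 10 fell, with Prm2 and Smcp at 0 in the knockdown. Among the 6 Leydig cell markers, all of which rose, the WT libraries also stood apart, with 1233 and 2476 CPM in the knockdown, against 105 and 714 CPM in WT replicates 1 and 2. In knockdown replicate 1 the 6 peritubular and endothelial markers (165 CPM) and the 6 macrophage markers (141 CPM) were above replicate 2 (68.4 and 47.3 CPM), and both above WT, at 12.3 and 22.2 CPM and at 9.30 and 9.77 CPM. In each of these lists 5 of 6 markers rose. The pachytene markers, of which 2 rose, 5 fell and 3 did not pass, were present in every library, with sums of 2606 and 2195 CPM against 3426 and 3808 CPM.

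The 3 BET genes did not move as one. Brd3 fell (2.79-fold lower, n = 2 libraries per group), the testis gene Brdt was lower in both knockdown libraries without passing the test, and Brd2 stood at nearly the same level in both groups. In bulk RNA, fewer cells of a type and less RNA per cell cannot be told apart.

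Brdt, the testis reader of acetylated histones, had 352 and 264 CPM in the knockdown libraries, against 526 and 493 CPM in the WT libraries. Both knockdown values lay below both WT values, and the share of all genes separated in this way was not counted. The knockdown libraries differed more from each other than the WT libraries did. The means were 308 ± 62.0 CPM in the knockdown, against 509 ± 23.0 CPM in WT (SD, n = 2 each). The log2 fold change was -0.72 with a standard error of 0.31 (edgeR, unadjusted p = 0.0422, adjusted p = 0.0662), a fold of 0.605 with an approximate 95% interval from 0.374 to 0.978. Brdt therefore stopped just short of the threshold, in a comparison where 60.9% of all genes passed.

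Brd3, one of the broadly expressed members, had 84.4 and 110 CPM in the knockdown, against 269 and 275 CPM in WT. The groups were far apart, by several times the distance between replicates of either group. The means were 97.2 ± 18.1 CPM in the knockdown, against 272 ± 4.23 CPM in WT (SD, n = 2 each). The log2 fold change was -1.48 (SE 0.30; edgeR, adjusted p = 0.00221), a fold of 0.358 with an approximate 95% interval from 0.226 to 0.568. Of 3 members 1 was therefore called lower, where the share over all genes was 33.5%.

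Brd2, the other broadly expressed member, had 563 and 512 CPM in the knockdown, against 528 and 598 CPM in WT, and the groups overlapped. The means were 538 ± 36.2 CPM in the knockdown, against 563 ± 49.8 CPM in WT (SD, n = 2 each). The log2 fold change was -0.07 (SE 0.30; edgeR, adjusted p = 0.863). The approximate 95% interval of the fold ran from 0.596 to 1.53, so a lower or higher level within it is not excluded by these libraries.

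**Figure D1:**
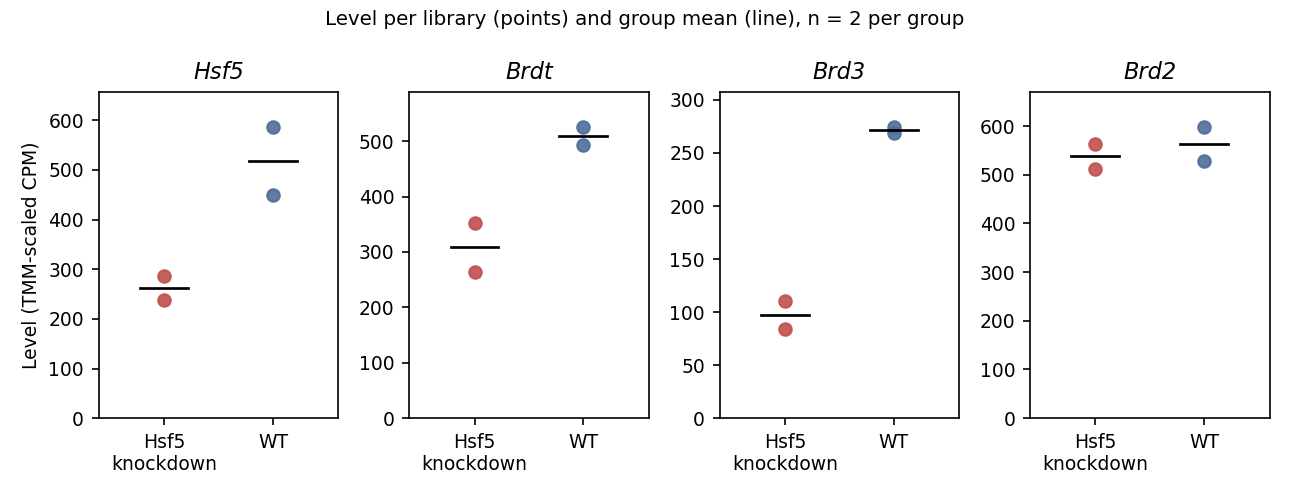
Level of Hsf5 and of the 3 BET genes (vertical axes, TMM-scaled CPM, each starting at 0) in the knockdown and WT libraries, with points for libraries and lines for the means of 2. For Hsf5, Brdt and Brd3 both knockdown points lie below both WT points, and for Brd2 the groups overlap. The share of all genes separated in this way was not counted.

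Set per length of the longest annotated transcript (4.745 kb for Brdt, 5.419 kb for Brd3 and 4.657 kb for Brd2), Brdt had 74.2 and 55.7 CPM per kb in the knockdown and 111 and 104 CPM per kb in WT. Brd2 had 121 and 110 CPM per kb against 113 and 128 CPM per kb, and Brd3 had 15.6 and 20.3 CPM per kb against 49.6 and 50.7 CPM per kb. In WT the levels of Brd2 and Brdt were near each other, 113 CPM per kb at the lowest for Brd2 and 111 CPM per kb at the highest for Brdt, with Brd3 below both. In the knockdown the order was Brd2, Brdt and Brd3, with no overlap between genes. Among the 19750 tested genes with a length, Brdt stood at percentiles 95.7 and 95.7 of the level per kb in the knockdown libraries and 95.7 and 96.0 in the WT libraries, Brd2 at 97.8 and 98.5 against 95.9 and 97.0, and Brd3 at 76.6 and 82.7 against 89.9 and 90.7. By rank within a library, Brdt kept its place among the higher transcripts.

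Ratios of members within a library do not depend on how libraries are scaled. Per kb, Brdt ran at 0.613 and 0.507 of the Brd2 level in the knockdown libraries and at 0.978 and 0.809 in the WT libraries, so the testis gene was near parity with Brd2 in WT and below it in the knockdown. The difference of the log2 ratios was -0.67 (means of -0.82 ± 0.20 in the knockdown and -0.14 ± 0.19 in WT for the ratio of counts; SD, n = 2 each). The Brd2 level per kb was 7.76 and 5.42 times that of Brd3 in the knockdown and 2.29 and 2.54 times in WT, a difference of 1.43 on the log2 scale. The Brdt level was 4.76 and 2.75 times that of Brd3 in the knockdown and 2.24 and 2.05 times in WT, a difference of 0.76. In each of the 3 pairs the groups did not overlap, and the share of all gene pairs separated in this way was not counted. The Brdt to Brd3 difference follows from the other 2, so the 3 pairs are not separate results. With 2 libraries against 2 the exact permutation test (two-sided) cannot go below p = 0.333. Each pair gave this value, also after adjustment over the 3 pairs. The Brdt to Brd3 difference rests most on the knockdown libraries. It was 0.36 without knockdown replicate 1 and 1.15 without knockdown replicate 2.

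**Figure D2:**
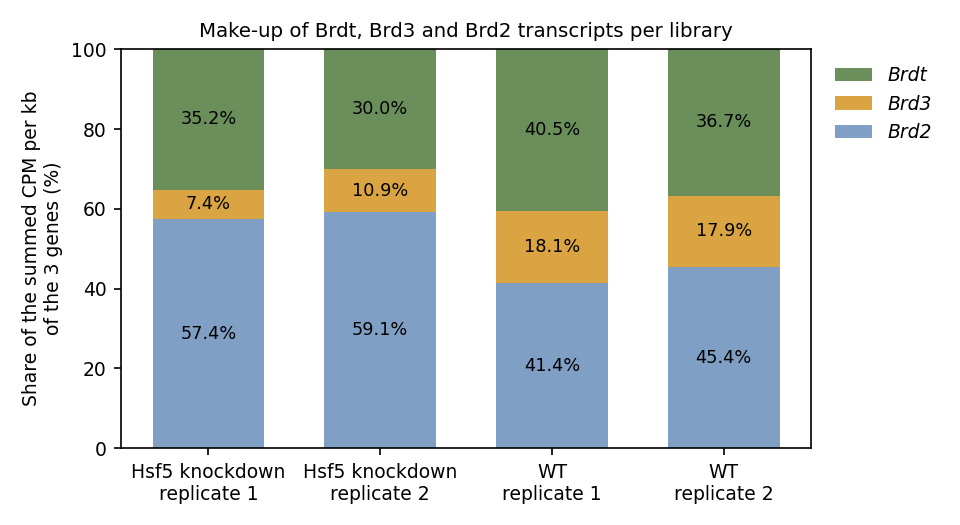
Share of each gene in the summed CPM per kb of the 3 genes (vertical axis, percent) in each library. Brd3 holds 7.39% and 10.9% in the knockdown libraries and 18.1% and 17.9% in WT, Brdt 35.2% and 30.0% against 40.5% and 36.7%, and Brd2 57.4% and 59.1% against 41.4% and 45.4%.

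The sum over the 3 genes was 211 and 186 CPM per kb in the knockdown libraries and 274 and 283 CPM per kb in WT. Within that sum the share of Brd2 was higher in both knockdown libraries, as the plot of shares shows, although its own level overlapped between groups.

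Whether Brdt passed the threshold depended on how the libraries were scaled. With library totals as the only scaling its log2 fold change was -0.30 (edgeR, adjusted p = 0.362), and with scaling on synaptonemal complex and cohesin genes it was -1.24 (edgeR, adjusted p = 0.00231). Of the 23 tested genes used for that scaling, 10 rose, 2 fell and 11 did not pass in the fit as reported. The median of all genes moved likewise, at -0.12 as reported, 0.31 with library totals and -0.61 with the synaptonemal complex and cohesin genes. Relative to that median Brdt stood at -0.60, -0.61 and -0.62, Brd3 at -1.36, -1.35 and -1.33, and Brd2 at 0.06, 0.06 and 0.06. A change of scaling alone moves all genes by nearly the same amount, so these near-equal values follow from the method. The Brdt value relative to the median moved with the genes and libraries kept, to -0.47 with no low-count filter and -0.26 without knockdown replicate 2. Across the 11 alternatives Brdt was lower in 11 and past the threshold in 6. Brd3 was lower and past the threshold in 11 of 11, with log2 fold changes from -1.94 to -1.04. Brd2 passed in none of the 11, with adjusted p from 0.104 to 0.996 in edgeR and DESeq2 and a sign that depended on the setting.

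**Figure D3:**
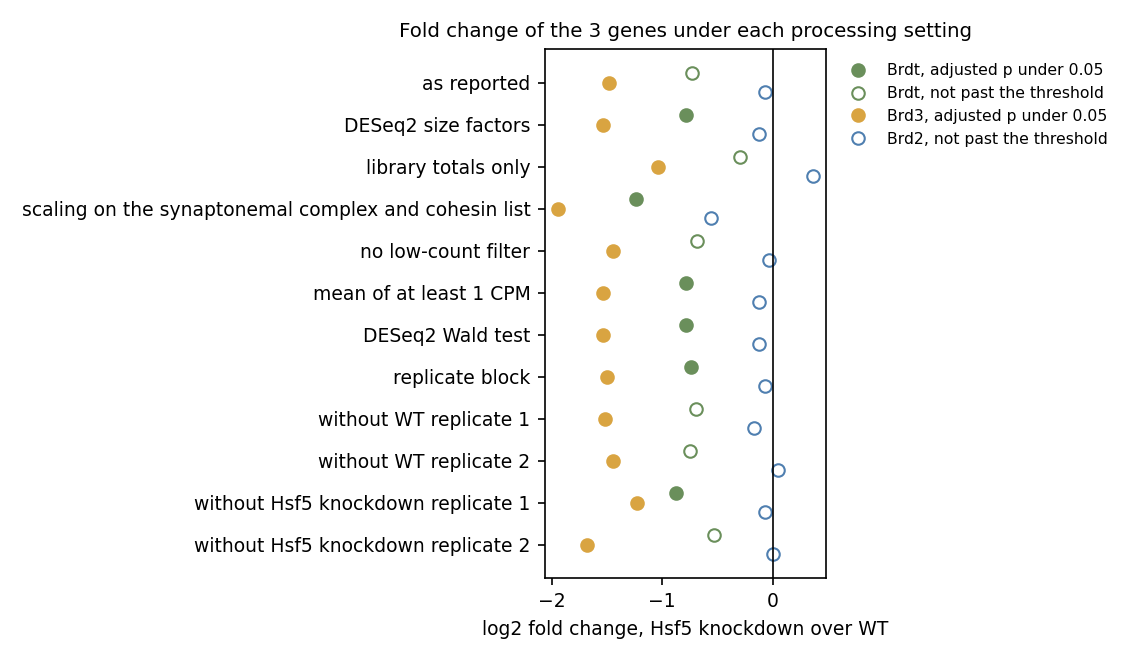
Log2 fold change of knockdown over WT (horizontal axis) for the 3 genes under each processing setting (rows), filled where the adjusted p was under 0.05 and open otherwise. Brd3 is filled in every row, Brdt lies on both sides of the threshold at values from -1.24 to -0.30, and Brd2 is unfilled in every row.

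The summed Sertoli and spermatogonial markers were many times higher in the knockdown libraries, and the spermatid markers far lower. Brd3 was lower there, Brdt was lower without passing the test, and Brd2 was nearly level. The part of these cells in the members' values was not tested. Leaving out 1 library at a time, the Brd3 log2 fold change ran from -1.68 to -1.23 and that of Brdt from -0.87 to -0.53. Brdt was at -0.87 without knockdown replicate 1 and at -0.53 without knockdown replicate 2. Knockdown replicate 1 had more peritubular and macrophage transcripts than replicate 2, but fewer Sertoli and Leydig transcripts. Without WT replicate 2, the WT library with more Leydig transcripts, Brdt was at -0.75 and Brd3 at -1.44. Without WT replicate 1 they were at -0.69 and -1.52. Whether any cell type accounts for these differences was not tested.

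The genes whose pattern over the 4 libraries was most like that of each member were found among 11641 others with a mean of at least 5 CPM, by the Euclidean distance between centred log2(CPM + 0.5) profiles. For Brdt they were Rsrc1, Mrpl16, Ift52, Polh and Pick1, at distances from 0.0452 to 0.0673. Rsrc1, whose product takes part in splicing, had 87.5 and 64.5 CPM in the knockdown against 132 and 119 CPM in WT. For Brd3 they were Tbc1d14, Reep6, Gopc, Rnf168 and Parp11, at 0.0652 to 0.0995. Gopc, a Golgi protein needed in mouse for the acrosome, had 32.0 and 38.9 CPM against 101 and 98.8 CPM, and Rnf168, a ubiquitin ligase of the DNA damage response, had 14.2 and 20.4 CPM against 48.0 and 48.5 CPM. For Brd2 they were Slc25a26, Eif2d, Rhot2, Ech1 and Ric8a, at 0.0390 to 0.0648. This closeness is a description over 4 libraries only.

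The genes beside Brd3 and Brdt did not all share their direction. The nearest protein-coding genes on either side of Brd3 in RefSeq (GRCm38.p6) are Brd3os and Wdr5. Wdr5, a core subunit of the H3K4 methyltransferase complexes, had 189 and 160 CPM in the knockdown, against 73.6 and 91.0 CPM in WT and rose (log2 fold change 1.08, SE 0.29; edgeR, adjusted p = 0.00983), whereas Brd3 fell. Brd3os had 8.49 and 6.88 CPM against 4.08 and 5.63 CPM and did not pass (log2 fold change 0.66, SE 0.47; edgeR, adjusted p = 0.249). Beside Brdt lie Tgfbr3, a TGF-beta co-receptor, which rose with 35.7 and 90.6 CPM against 7.005 and 27.2 CPM (edgeR, adjusted p = 0.0269), and Ephx4, which did not pass at 1.65 and 0.897 CPM against 3.73 and 2.22 CPM (edgeR, adjusted p = 0.120). The spans of Brdt and Brd3 also hold a pseudogene, Gm8152, and a microRNA gene, Mir7578, and neither reached 2 CPM in a library. Brd2 lies among genes of the MHC class II region. Its exons share 360 bases with H2-DMa and 405 with the antisense gene CR974462.3, both on the other strand. Whether reads were counted by strand is not known from the sources used here, and how reads over the shared bases were counted was not tested. CR974462.3 has no counts under that symbol. H2-DMa had 8.77 and 6.57 CPM in the knockdown, against 13.1 and 8.62 CPM in WT, far below the 512 to 598 CPM of Brd2. The other neighbours, H2-DMb2 and H2-Oa, were near or below 1 CPM.

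Upstream sequences are shown since the members moved differently while the targeted gene is of the heat shock factor family. For each gene the 250 bases before a RefSeq start (GRCm38.p6) were searched, and the part outside annotated exons is printed in the gene's direction, with the motifs CACGTG (E-box), CCAAT and GGGCGG (GC box) in capitals. The Brdt part is chr5:107330944-107331158 (plus strand), that of Brd3 chr2:27475399-27475576 (minus strand) and that of the outermost Brd2 start chr17:34122635-34122821 (minus strand).
Brdt: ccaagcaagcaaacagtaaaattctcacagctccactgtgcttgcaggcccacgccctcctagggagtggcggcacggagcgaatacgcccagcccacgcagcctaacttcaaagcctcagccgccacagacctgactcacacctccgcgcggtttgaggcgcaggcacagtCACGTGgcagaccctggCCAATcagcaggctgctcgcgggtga
Brd3: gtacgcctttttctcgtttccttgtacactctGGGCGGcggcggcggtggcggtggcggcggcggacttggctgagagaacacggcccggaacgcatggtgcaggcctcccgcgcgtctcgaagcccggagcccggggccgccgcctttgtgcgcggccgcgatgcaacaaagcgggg
Brd2: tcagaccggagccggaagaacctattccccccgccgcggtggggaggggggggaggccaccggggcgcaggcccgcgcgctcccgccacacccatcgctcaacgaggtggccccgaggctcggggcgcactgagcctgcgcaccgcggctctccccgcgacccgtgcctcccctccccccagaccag

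The 250-base windows differed in base composition. Brdt had 16 CpG dinucleotides and 62.4% G and C, Brd3 37 and 73.2%, and the outermost Brd2 window 27 and 73.6%. Brdt held 1 CACGTG, which 6.04% of 32536 distinct RefSeq windows of that length hold on either strand, and 1 CCAAT, which 33.8% hold. Brd3 and 1 of the other Brd2 windows held 1 GGGCGG each, found in 33.0%, and the outermost Brd2 window held none of these motifs. The paired heat shock element cores GAANNTTC and TTCNNGAA, in 6.72% and 7.19% of all windows, were in none of the 5 windows of the members (1 of Brdt, 1 of Brd3 and 3 of Brd2), nor was TATAAA, in 12.3%. These are letter matches in a short window only.

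Bromodomains occur outside the BET family too, in acetyltransferases, remodellers and other readers. Of 35 such genes tested, 14 rose, 6 fell and 15 did not pass, with a median log2 fold change of 0.54, against 27.4% higher, 33.5% lower and a median of -0.12 over all genes tested. Of the 35, 4 had a lower log2 fold change than Brd3, and 6 a lower one than Brdt. Taf1, an X-linked subunit of the basal factor TFIID, had 51.6 and 81.7 CPM in the knockdown against 3.52 and 4.94 CPM in WT, and rose. So did Kmt2a, an H3K4 methyltransferase, with a log2 fold change of 3.35 (SE 0.49), and Zmynd8, a chromatin reader, also with 3.35 (SE 0.51). Baz1a, a remodelling factor that mouse males need for fertility, fell to 51.5 and 66.2 CPM in the knockdown, against 410 and 550 CPM in WT. Trim24, a histone H3 reader, fell to 119 and 114 CPM against 453 and 383 CPM, and Trim66 to 1.72 and 2.91 CPM against 19.1 and 21.7 CPM. Of the 14 that rose, Taf1 and Brwd3 are X-linked. Without knockdown replicate 2, 7 genes rose, and without WT replicate 1, 9 did. With library totals only, 20 rose and 4 fell, and with scaling on synaptonemal complex and cohesin genes 10 rose and 9 fell.

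**Figure D4:**
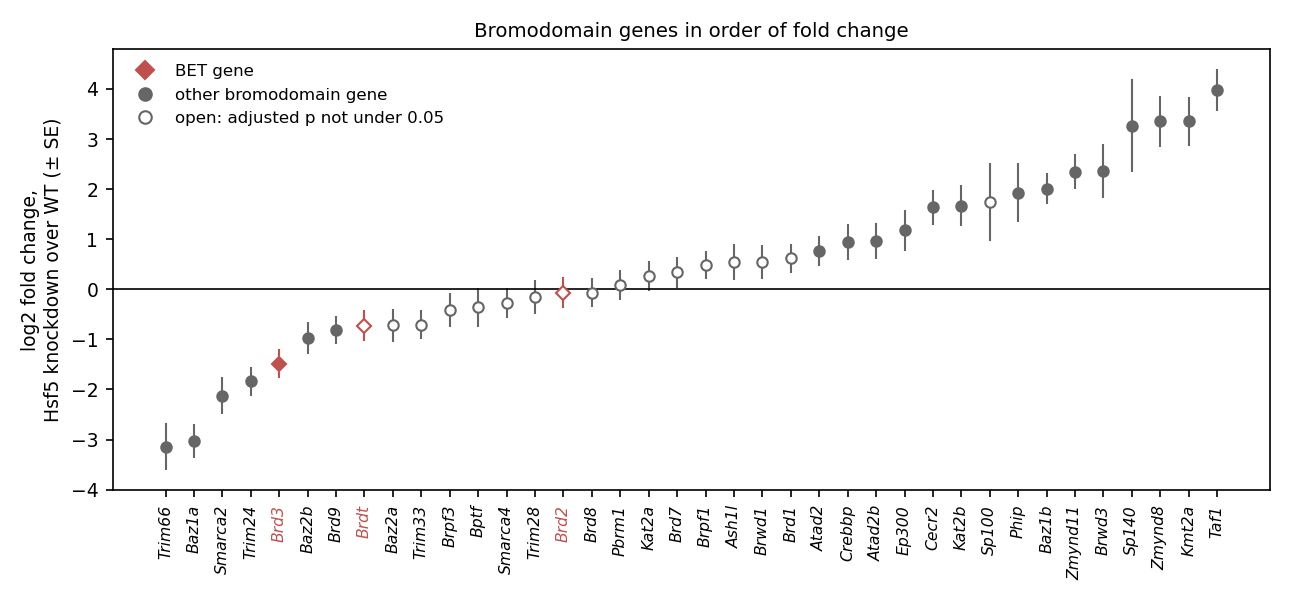
Log2 fold change of knockdown over WT with its standard error (vertical axis) for the 3 BET genes (diamonds) and 35 other bromodomain genes (circles), in order of value. Filled symbols passed an adjusted p of 0.05. Brd3 is the fifth from the low end, Brdt lies 3 places further and Brd2 near 0.

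BET proteins work with the machinery of transcription elongation. Of 20 genes of P-TEFb and the super elongation complex 7 rose, 5 fell and 8 did not pass (median 0.30). These shares of 35% higher and 25% lower lie near the 27.4% and 33.5% over all genes. With scaling on synaptonemal complex and cohesin genes 4 rose and 7 fell. The P-TEFb kinase gene Cdk9 had 162 and 133 CPM in the knockdown against 146 and 116 CPM in WT and did not pass (edgeR, adjusted p = 0.634), while its cyclin Ccnt1 rose to 46.1 and 61.0 CPM, against 20.4 and 19.6 CPM in WT. Hexim1, which holds P-TEFb inactive, rose to 103 and 99.9 CPM against 37.8 and 36.6 CPM in WT, whereas its paralog Hexim2 fell to 8.53 and 11.1 CPM against 43.0 and 31.8 CPM. Aff1 and Aff3, scaffolds of the super elongation complex family, rose by 3.11 (SE 0.64) and 2.09 (SE 0.48). Ccnk, the cyclin of the elongation kinases Cdk12 and Cdk13, had 161 and 132 CPM against 753 and 822 CPM, and Mllt1, a reader in the complex, had 77.2 and 70.8 CPM against 154 and 179 CPM, and both fell. Of the 7 pausing factors, Supt6, Nelfb and Nelfcd rose (log2 fold changes of 0.88, 1.37 and 0.92), Nelfe fell (-0.85), and Supt4a, Supt5 and Nelfa did not pass (0.90, 0.01 and -0.59). For these 7 factors that is 42.9% higher and 14.3% lower, against 27.4% and 33.5% over all genes. Only 1 of them rose without WT replicate 1, without WT replicate 2 or with scaling on synaptonemal complex and cohesin genes, and none fell with library totals only or without 1 of WT replicate 1, WT replicate 2 or knockdown replicate 2, by edgeR.

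Of 6 genes for partners that bind the ET domain in human cells, Atad5 and Bicra rose, with 31.8 and 46.8 CPM in the knockdown against 2.12 and 3.68 CPM in WT and with 10.1 and 16.9 CPM against 2.27 and 2.26 CPM. This share of 33.3% higher lies near the 27.4% over all genes, of which 33.5% were lower. Nsd3, Jmjd6, Chd4 and Glyr1 did not pass, with log2 fold changes from -0.27 to 0.20, and no gene of the list fell (edgeR, 0 at an unadjusted p under 0.05, and 0 by DESeq2), although 1 did with scaling on synaptonemal complex and cohesin genes. Of 8 genes linked to BRDT in mouse studies as a target or a bound partner, Ccna1, the germ cell cyclin A, fell to 2.82 and 3.44 CPM in the knockdown, against 242 and 186 CPM in WT (log2 fold change -6.10, SE 0.37). H1f6, the testis linker histone, had a low level in the polyadenylated RNA of all libraries, at 1.461 and 0.461 CPM against 3.01 and 0.904 CPM, and did not pass. How much of the H1f6 transcript such RNA holds was not tested. Ccna1 and H1f6 are also among the pachytene markers. Srsf2, a splicing factor, rose by 0.95 (SE 0.33) and Ccnt1 by 1.42 (SE 0.33), while Smarce1, Cdk9, Ddx5 and Hnrnpk did not pass, with log2 fold changes from -0.24 to 0.46. For the 8 genes linked to BRDT that is 25% higher and 12.5% lower, against 27.4% and 33.5% over all genes. Without WT replicate 1, WT replicate 2 or knockdown replicate 1, only 1 of these 8 rose, and none did with scaling on synaptonemal complex and cohesin genes.

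Other enzymes set and remove acetyl marks, among them those read by BET proteins. The writer genes counted here also include scaffolds and cofactors of such enzymes. What the products of the listed deacetylase genes act on in these cells was not tested. Of 31 writer genes 8 rose, 7 fell and 16 did not pass (median 0.38), which is 25.8% higher and 22.6% lower, against 27.4% and 33.5% over all genes. Some writers that rose are also among the other bromodomain genes above. Some that fell, such as Kat5 and Nutm1, are also among the genes of the exchange of histones for protamines below. Such genes are counted in both lists. Kat5, the catalytic subunit of the NuA4/TIP60 H4 acetyltransferase, fell to 60.4 and 48.8 CPM in the knockdown, against 176 and 178 CPM in WT, and Kat8, which acetylates H4 lysines, had a log2 fold change of -1.89 (SE 0.31). Nutm1, a testis cofactor of p300 that takes part in H4 hyperacetylation in mouse spermatids, had 6.52 and 6.33 CPM against 34.5 and 27.1 CPM. Hat1, which acetylates new H4, rose by 2.71 (SE 0.38), and Jade1 and the X-linked Jade3, scaffolds of an H4 acetyltransferase complex, rose by 3.23 (SE 0.47) and 4.02 (SE 0.43). Without knockdown replicate 2, 4 writers rose. With library totals 15 rose and 6 fell, and with scaling on synaptonemal complex and cohesin genes 5 rose and 9 fell. Of 16 deacetylase genes 8 rose, 2 fell and 6 did not pass (median 0.88), which is 50% higher and 12.5% lower. Hdac2 and the X-linked Hdac6 rose by 1.65 (SE 0.33) and 3.89 (SE 0.40), as did Sirt6 by 1.85 (SE 0.43), while Hdac11 fell to 9.89 and 8.604 CPM in the knockdown against 29.9 and 21.2 CPM in WT, and Sirt3 to 33.5 and 28.9 CPM against 105 and 114 CPM. Without WT replicate 1, 4 deacetylase genes rose, without knockdown replicate 2 only 1 fell, and with scaling on synaptonemal complex and cohesin genes 4 rose and 4 fell.

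BRDT acts on spermatid chromatin in the exchange of histones for protamines. Of 19 genes of that step 14 fell, none rose and 5 did not pass (edgeR, 0 rose at an unadjusted p under 0.05, and 0 by DESeq2), against 33.5% lower and 27.4% higher over all genes. Of those that did not pass, H1f6 had a log2 fold change of -1.02, while H2bc1, H3f3b, H2ac1 and Rnf8 were at 1.77, 0.60, 0.15 and 0.14. H2bc1 had 11.0 and 1.82 CPM in the knockdown against 1.31 and 2.47 CPM in WT. How much of these histone transcripts polyadenylated RNA holds was not tested. With library totals only or without knockdown replicate 2, 2 genes rose, and 1 did with no low-count filter or without WT replicate 2. The median of -3.30 was that of Chd5, a remodeller of spermatids, which had 13.0 and 17.4 CPM in the knockdown against 144 and 155 CPM in WT. With genes without a knockdown count set to a floor of 3 counts over both knockdown libraries, the median was also -3.30. All 3 such genes stayed below the median, so the floor could not move it. Tnp2, a transition protein, had 0.0424 and 0.0727 CPM against 747 and 289 CPM, and H1f7, a spermatid linker histone, 0.0212 and 0 CPM against 118 and 65.8 CPM. Prm2 and 2 other genes of the list, H2al2a and Prm3, had no count in the knockdown libraries. Tnp2 and Prm2 are also among the spermatid markers. Most of the listed genes are themselves expressed in spermatids, whose summed markers are given above. Their part in these values was not tested.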

How the data were processed

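The authors deposited 1 table of raw read counts per gene symbol, with 1 column per library. The submitters' processing notes name build mm39 and these tools without their order: featureCounts 1.5.3, DESeq2 1.46.0, Trim Galore 0.6.10, and HISAT2 2.2.1. Annotation, strand setting and the handling of multiply mapped reads could not be learned from the sources used here. Columns were matched to samples by name.

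The deposited counts went into edgeR 4.0.16 (R 4.3.3). Its filterByExpr left 23594 of 36809 genes with a count, scaled by TMM and compared between knockdown and WT by the quasi-likelihood F test, with Benjamini-Hochberg adjustment over all of them at 0.05. The common biological coefficient of variation came to 0.356. Each standard error is the log2 fold change over the square root of F, and intervals use the fit's degrees of freedom. Replicates differed by more than sampling noise (93.8 in the knockdown and 44.1 in WT, as chi-square over its degrees of freedom).

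Members, the 8 functional lists, the 8 marker lists, all tests and alternatives were chosen with earlier results of these data known. Motifs and the sequences shown were chosen after the sequences were read. Of 235 list entries 234 matched by symbol. Per list, up to 3 genes in each direction past 0.05 with the smallest p and a mean of at least 1 CPM are named, or every member in lists of 8 or fewer. Chd5, H2al2a and Prm3 were named after their values were seen, as were the histone genes and Rnf8 that did not pass. Lists are described by counts and medians, without a set test. Transcript lengths are of GENCODE M21 (83.7% of tested genes), chromosomes and promoters of RefSeq GRCm38.p6. Both precede mm39 and were joined by symbol. Alternatives were other scalings and filters, the DESeq2 1.42.0 Wald test, a replicate block, and leaving out each library.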

Additional observations from a re-analysis of the deposited data

How the results depend on the processing

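The fall of Brd3 kept its direction and its side of the threshold under all 11 alternatives. Brdt, not past the threshold as reported, passed as lower with DESeq2 size factors (-0.79), scaling on synaptonemal complex and cohesin genes (-1.24), a filter at 1 CPM on average (-0.78), the DESeq2 Wald test (-0.79) and the replicate block (-0.74), and its log2 fold change ran from -0.87 to -0.53 without 1 of the libraries. Brd2 changed sign with library totals only (0.37), without WT replicate 2 (0.051) and without knockdown replicate 2 (0.0019), and ran from -0.17 to 0.051 without 1 of the libraries. The cause was not tested. Leaving a group with 1 library assumes that it varies like the other group.

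Of the genes in the functional lists together 40 rose and 33 fell, against 56 and 28 with library totals only and 25 and 45 with scaling on synaptonemal complex and cohesin genes. Without 1 of the libraries 26 to 39 rose. Of 176 further list counts, 147 stayed within 1.5 times the reported count. Over all genes 6467 were higher and 7902 lower as reported, 8121 and 6680 with library totals, and 4668 and 9243 with the synaptonemal complex and cohesin genes. Differences of the within-library log2 ratios kept their sign without any 1 library, from -0.81 to -0.54 for Brdt to Brd2, 1.17 to 1.69 for Brd2 to Brd3 and 0.36 to 1.15 for Brdt to Brd3.

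The replicate numbers are shared by the groups, but nothing says that a number marks a shared animal, litter or day. The replicate 1 deviations from the group means correlated at 0.32 across genes between the groups. With the replicate block, Brdt was at -0.74 (edgeR, adjusted p = 0.0146), Brd3 at -1.49 and Brd2 at -0.07. With 2 libraries a group, small differences such as that of Brd2 are not detectable.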
